A study of Homo sapiens with 12 samples.

Results

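SPDEF and 9 further genes that mark epithelial cells were followed in PC3 cells, a human prostate adenocarcinoma line, and in MG63 cells, a human osteosarcoma line that served as a mesenchymal reference. The 10 genes are the transcription factors SPDEF, EHF, ELF3 and GRHL2, the splicing factor ESRP1, the adhesion proteins CDH1 and EPCAM, and the keratins KRT8, KRT18 and KRT19, out of 28278 gene symbols on the primary chromosomes. SPDEF was chosen by its measured fall after siLARP4A in PC3, and the other 9 were named around it as epithelial identity genes with earlier results of these data known. Each gene is represented by 1 transcript model, that with the largest fragment sum of the series. The values of SPDEF after siLARP4A in PC3 are therefore a description and carry no test.

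Both lines are labelled wild type and were transfected with Lipofectamine RNAiMAX, a lipid reagent, and 10 nM of siRNA, and RNA was taken 72 h later. The 3 groups of each line received a non-targeting siRNA (siControl), siRNA against LARP4A (siLARP4A) or siRNA against LARP4B (siLARP4B). LARP4A and LARP4B belong to the same family of RNA-binding proteins and act on messenger RNA in the cytoplasm, and the gene of LARP4A is listed as LARP4. Each of the 6 groups held 2 libraries of poly(A) RNA, described by the labels as biological replicates, and the p-values measure only the spread between such libraries. The siRNA sequences and the number of siRNAs per target are not given in the sources used here, so an effect of a sequence on other transcripts cannot be told apart from that of its target.

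SPDEF, EHF and ELF3 belong to the ETS family of transcription factors and are found mainly in epithelia, where SPDEF is known for secretory and luminal differentiation in the prostate, the airway and the gut. GRHL2 and ESRP1 maintain epithelial gene expression and epithelial splicing, and CDH1 (E-cadherin) and EPCAM hold neighbouring epithelial cells together. KRT8 and KRT18 pair with each other to form the intermediate filaments of simple epithelia, to which KRT19 also contributes. Mesenchymal cells carry little of most of these products.

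The RefSeq promoter table of GRCh38.p14 held 4 of the 10 genes (SPDEF, EHF, ELF3 and KRT8). The 250 bases before the start are shown for SPDEF and ELF3, because the start in that table is also the start of the model counted here and because their RNA took different courses after siLARP4A. They lie at chr6:34556330-34556579 on the minus strand and chr1:202010337-202010586 on the plus strand, and capitals mark the motif matches named in the next paragraph.
SPDEF: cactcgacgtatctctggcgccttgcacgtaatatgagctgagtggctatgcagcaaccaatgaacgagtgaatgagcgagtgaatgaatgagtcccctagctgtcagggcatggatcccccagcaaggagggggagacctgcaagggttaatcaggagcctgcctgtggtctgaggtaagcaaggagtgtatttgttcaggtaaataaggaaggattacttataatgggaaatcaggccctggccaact
ELF3: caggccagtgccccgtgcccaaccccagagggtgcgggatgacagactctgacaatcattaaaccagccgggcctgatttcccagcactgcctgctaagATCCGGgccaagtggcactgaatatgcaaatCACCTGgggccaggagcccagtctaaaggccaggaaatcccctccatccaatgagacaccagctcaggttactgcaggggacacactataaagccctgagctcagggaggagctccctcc

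The motifs were searched on both strands in the 250 bases before the start. The ETS motif CCGGAA was present in 14.53% of all 35116 promoters in the table and its form CCGGAT in 5.85%. The E-box CAGGTG was present in 17.49%, the grainyhead motif AACNNGTT in 3% and the AP-1 motif TGANTCA in 6.57%. The ELF3 window held CCGGAT, read from the other strand as ATCCGG, from position -151, and CAGGTG, read as CACCTG, from position -120, counted back from the first transcribed base. None of the 5 motifs was in the SPDEF window in the full form searched. The shorter GGAA and GGAT were not searched, and both occur in each of the windows shown. The G+C content was 50.8% for SPDEF and 58.4% for ELF3, against a median of 58% over the table.

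Library totals, as implied by the deposited values, ran from 16950119 to 24864977 fragments in PC3 and from 17473390 to 19595860 in MG63. FPKM is the number of fragments per kilobase of the model, scaled to the library total, and levels are compared between genes only on that scale. Each targeted gene was lowest under its own siRNA in both lines. LARP4 averaged 19.2, 2.41 and 18.9 FPKM in the siControl, siLARP4A and siLARP4B libraries of PC3, and 8.34, 2.15 and 11.1 in MG63. After siLARP4B, LARP4 thus rose in MG63, by 0.43 in log2 units (edgeR adjusted p 8.44e-06), and differed by -0.03 in PC3 (edgeR adjusted p 0.713). LARP4B averaged 7.10, 6.83 and 1.31 FPKM in PC3 and 6.71, 6.99 and 2.05 in MG63.

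The 8 epithelial markers used to check the lines (CDH1, EPCAM, KRT8, KRT18, KRT19, CLDN4, CLDN7 and ESRP1) summed to between 1104 and 1424 FPKM in the PC3 libraries and between 54.6 and 72.4 in MG63. The 12 osteoblast and mesenchymal markers summed to between 84.7 and 109.6 FPKM in PC3 and between 2105 and 2872 in MG63. PC3 was thus the epithelial line of the pair by these sums, but not in every gene. PC3 siControl cells averaged 472 FPKM of VIM, an intermediate filament of mesenchymal cells, 34.5 of CDH11 and 28.4 of TWIST1, and CDH11 and TWIST1 were lower in MG63 (5.18 and 7.41). KLK3, prostate-specific antigen, was below 0.03 FPKM on average in every PC3 group, and SP7, an osteoblast factor, was below 0.04 in every MG63 group.

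In PC3 siControl cells the 10 genes ranged from abundant keratins to factors close to the limit of detection. KRT19 averaged 364 FPKM, KRT18 263 and KRT8 205. SPDEF stood next at 42.9, followed by EPCAM at 25.1, ELF3 at 14.7, CDH1 at 3.45, EHF at 2.44, ESRP1 at 0.482 and GRHL2 at 0.0356. In this order no neighbouring genes overlapped between the 2 siControl libraries. The epithelial programme of this PC3 culture thus had abundant keratins, SPDEF and EPCAM beside very low GRHL2 and ESRP1.

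**Figure D1:**
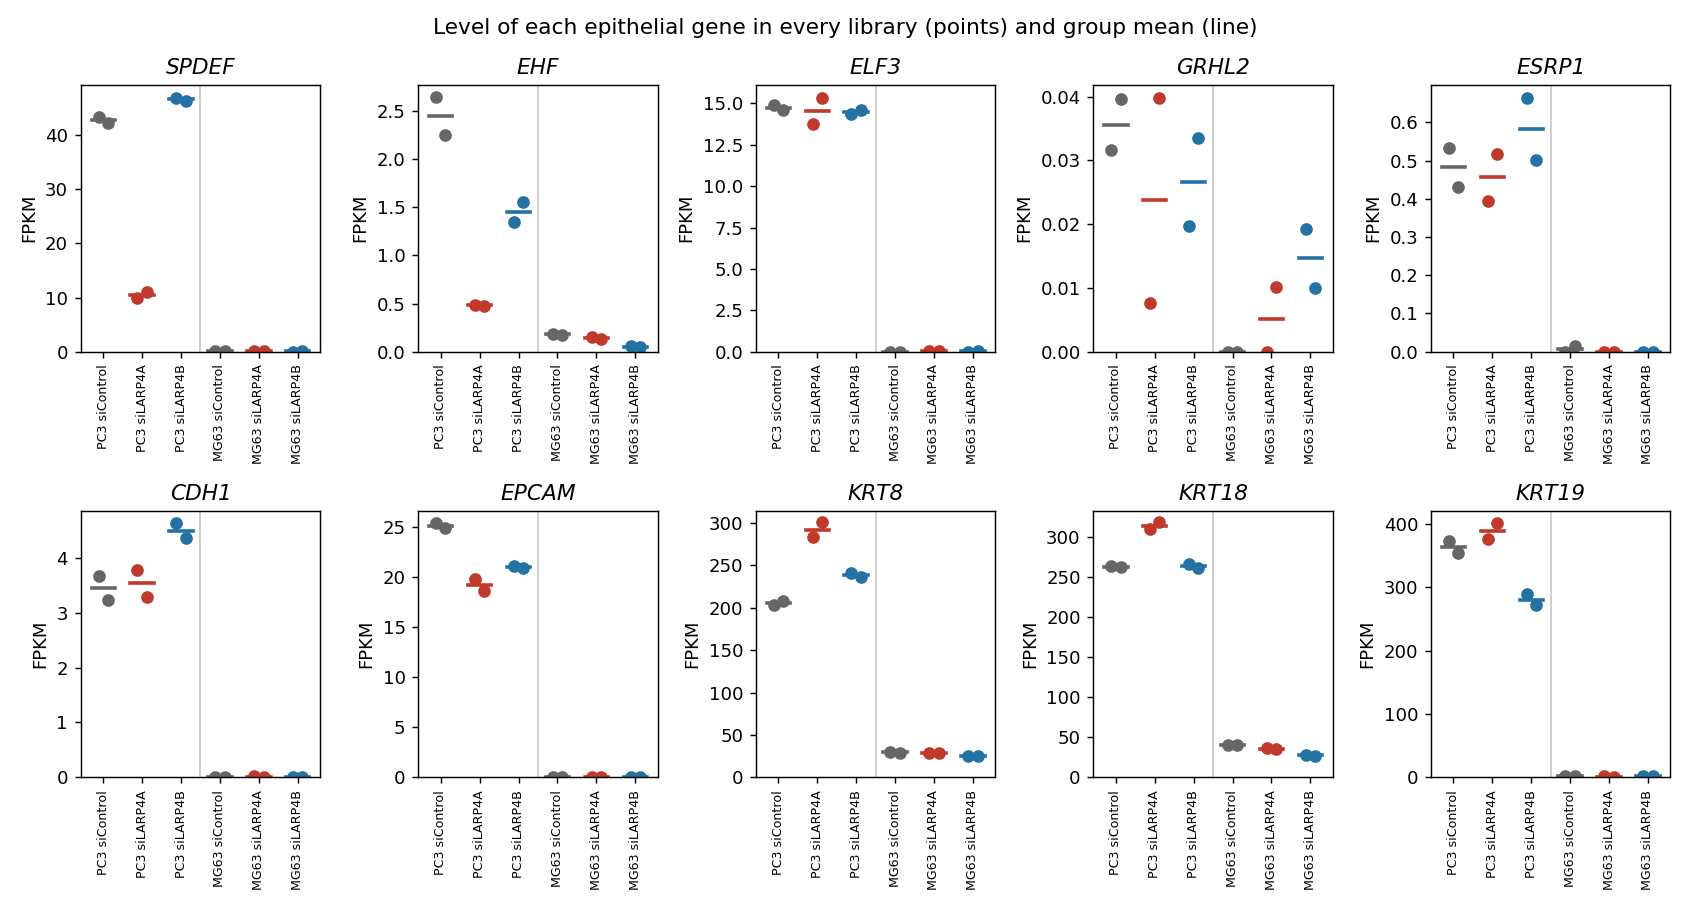
FPKM of each of the 10 epithelial genes in every library (points) with the group mean (line), on a linear axis of its own for each gene, for siControl, siLARP4A and siLARP4B in PC3 and in MG63. SPDEF in the PC3 siLARP4A libraries lies at 10.0 and 10.99 FPKM and in the other PC3 libraries between 42.4 and 47.0, and in MG63 every gene except KRT8, KRT18 and GRHL2 lies near the bottom of its axis.

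SPDEF (chromosome 6, 34537802 to 34556329, minus strand) had 43.4 and 42.4 FPKM in the PC3 siControl libraries, 10.0 and 10.99 in the siLARP4A libraries and 47.0 and 46.4 in the siLARP4B libraries. The siLARP4A libraries lay far below the other 4, and the siLARP4B libraries lay just above siControl. The siLARP4A level was 24.7% of the siControl level, a log2 difference of -2.02, and the log2 difference from siLARP4B was -2.14. In bulk RNA, less SPDEF RNA per cell and fewer cells that carry it cannot be told apart. Between siLARP4B and siControl the log2 difference of SPDEF was 0.12 (95% interval -0.01 to 0.25), which did not pass the test (edgeR adjusted p 0.125). With genes below a mean of 5 FPKM left out it did pass, at 0.15 (edgeR adjusted p 0.0325). SPDEF was chosen against these same siControl libraries, so neither test is independent of that choice.

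MG63 had almost no SPDEF. Its siControl libraries held 3 and 5 fragments, its siLARP4A libraries 4 and 4 and its siLARP4B libraries 1 and 2, all at or below 0.137 FPKM. The pooled siControl fragments put SPDEF 381-fold higher in PC3 than in MG63, with an exact 95% counting interval of 193 to 883. With at most 5 fragments in a library, MG63 carries little information on a SPDEF response.

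EHF (chromosome 11, 34642372 to 34663287, plus strand), an ETS factor of glandular epithelia, had 2.64 and 2.25 FPKM in the PC3 siControl libraries, 0.488 and 0.473 after siLARP4A and 1.35 and 1.55 after siLARP4B. The 3 groups did not overlap, with siControl highest and siLARP4A lowest. EHF fell to 20% of siControl after siLARP4A, by 2.32 in log2 units (SE 0.157, edgeR adjusted p 1.87e-10). It fell to 59.1% after siLARP4B, by 0.76 (SE 0.135, edgeR adjusted p 8.34e-05). The 2 siRNAs share their control libraries, and their direct comparison gave a log2 difference of -1.56 between siLARP4A and siLARP4B (SE 0.169, edgeR adjusted p 6.80e-08). With limma on log2(FPKM + 1), a scale that compresses levels this low, EHF fell by 1.22 after siLARP4A and by 0.49 after siLARP4B.

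EHF was lower in MG63 but still counted, with 18 and 18 fragments in siControl, 14 and 13 after siLARP4A and 6 and 5 after siLARP4B. The siLARP4B libraries lay below the other 4. EHF fell after siLARP4B in MG63 by 1.72 in log2 units (SE 0.425, edgeR adjusted p 0.00305). After siLARP4A the log2 difference was -0.37 (95% interval -1.09 to 0.35, edgeR adjusted p 0.494). On the log2(FPKM + 1) scale of limma the siLARP4B difference in MG63 was -0.17 and did not pass (adjusted p 0.0759). The siLARP4A effect on EHF differed between the lines by -1.95 (SE 0.400, edgeR adjusted p 0.00243), and by -1.16 with limma on log2(FPKM + 1). The difference between the lines in the siLARP4B effect was 0.96 and did not pass (SE 0.455, edgeR adjusted p 0.129). With limma on log2(FPKM + 1) that difference turned to -0.33 and passed (adjusted p 0.0227), so its direction depends on the scale.

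ELF3 (chromosome 1, 202010587 to 202017180, plus strand), an ETS factor of simple epithelia, did not pass the test in any PC3 comparison. Its siControl libraries had 14.9 and 14.6 FPKM, the siLARP4A libraries 13.8 and 15.3 and the siLARP4B libraries 14.3 and 14.6, so the groups overlapped. The log2 difference from siControl was -0.00 after siLARP4A (95% interval -0.16 to 0.16, edgeR adjusted p 1) and -0.03 after siLARP4B (95% interval -0.19 to 0.13, edgeR adjusted p 0.800). These intervals leave out changes of the size seen for SPDEF and EHF after siLARP4A. MG63 siControl libraries listed 0 fragments of ELF3, siLARP4A 3 and 4, and siLARP4B 0 and 2. Set against a floor of 3 fragments for the siControl group, ELF3 in MG63 was 2.41-fold higher after siLARP4A. That ratio takes the 7 siLARP4A fragments as exact, so it is no lower bound. The difference passed in edgeR (adjusted p 0.0179), a call that rests on those 7 fragments.

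GRHL2, a grainyhead factor of epithelial identity (chromosome 8, 101492439 to 101669724), had 3 and 4 fragments in PC3 siControl, 1 and 4 after siLARP4A and 2 and 3 after siLARP4B. With 21 fragments over the 12 libraries it did not pass the expression filter, and no difference was detectable at this depth. ESRP1, which directs epithelial splicing (chromosome 8, 94641174 to 94707466), had 36 and 31 fragments in PC3 siControl, 37 and 37 after siLARP4A and 48 and 32 after siLARP4B. The 3 groups overlapped in FPKM. The log2 difference from siControl was -0.08 after siLARP4A (95% interval -0.68 to 0.53, edgeR adjusted p 0.873) and 0.28 after siLARP4B (95% interval -0.31 to 0.88, edgeR adjusted p 0.448). MG63 held 1 fragment of ESRP1 in its 6 libraries together.

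CDH1, E-cadherin of the adherens junction (chromosome 16, 68737292 to 68835536), had 3.66 and 3.23 FPKM in PC3 siControl, 3.78 and 3.29 after siLARP4A and 4.62 and 4.35 after siLARP4B. The siLARP4B libraries lay above the other 4. CDH1 rose after siLARP4B by 0.38 in log2 units (SE 0.117, edgeR adjusted p 0.0107), and its difference after siLARP4A was 0.06 (95% interval -0.18 to 0.30, edgeR adjusted p 0.738). The rise after siLARP4B was 0.35 with DESeq2 and did not pass there (adjusted p 0.119). It was also lost without siControl replicate 2 (edgeR adjusted p 0.141) and without siLARP4B replicate 1 (0.0982). The level after siLARP4A was below that after siLARP4B by 0.32 on the log2 scale (edgeR adjusted p 0.0217), which DESeq2 did not call (-0.31, adjusted p 0.149). That call was also lost without siLARP4A replicate 2 (edgeR adjusted p 0.148), siLARP4B replicate 1 (0.149) or siLARP4B replicate 2 (0.0537).

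EPCAM, a surface glycoprotein of epithelia (chromosome 2, 47369311 to 47387020), had 25.3 and 24.9 FPKM in PC3 siControl, 19.8 and 18.6 after siLARP4A and 21.1 and 20.9 after siLARP4B. Every library of both siRNA groups lay below both siControl libraries. EPCAM fell by 0.37 on the log2 scale after siLARP4A (SE 0.0851, edgeR adjusted p 0.00184) and by 0.26 after siLARP4B (SE 0.0860, edgeR adjusted p 0.0171). The 2 siRNAs differed from each other by -0.10 (95% interval -0.29 to 0.08, edgeR adjusted p 0.329). With DESeq2 the siLARP4B difference was -0.29 (adjusted p 0.0755), and it did not pass either without siControl replicate 1 (edgeR adjusted p 0.0873), siLARP4B replicate 1 (0.0772) or siLARP4B replicate 2 (0.0767). The siLARP4A difference was lost in 1 of the 23 alternatives, limma on log2(FPKM + 0.1), at -0.39 (adjusted p 0.208).

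MG63 had next to no fragments of either adhesion gene. CDH1 gave 1 fragment in the siControl libraries together, 2 after siLARP4A and 1 after siLARP4B, and EPCAM gave 0, 1 and 2. Against a floor of 3 fragments over the MG63 group, EPCAM in siControl cells was 482-fold higher in PC3 and ELF3 587-fold. Counting error of the PC3 fragments is left out of these 2 ratios. For CDH1 the ratio was 624, with an exact 95% counting interval of 112 to 24690.

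KRT8, the type II keratin of simple epithelia (chromosome 12, 52897191 to 52949860, minus strand), had 203 and 207 FPKM in PC3 siControl, 283 and 301 after siLARP4A and 241 and 236 after siLARP4B. The 3 groups did not overlap, and both siRNAs stood above siControl. KRT8 rose by 0.53 on the log2 scale after siLARP4A (SE 0.0428, edgeR adjusted p 3.23e-09) and by 0.22 after siLARP4B (SE 0.0430, edgeR adjusted p 0.000254). The rise after siLARP4A exceeded that after siLARP4B by 0.31 (SE 0.0427, edgeR adjusted p 2.16e-06).

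KRT18, the type I partner of KRT8 (chromosome 12, 52949118 to 52952906, plus strand), had 263 and 263 FPKM in PC3 siControl, 309 and 318 after siLARP4A and 266 and 261 after siLARP4B. Only the siLARP4A libraries stood apart from siControl. KRT18 rose by 0.27 after siLARP4A (SE 0.0441, edgeR adjusted p 4.14e-05), and its difference after siLARP4B was 0.00 (95% interval -0.09 to 0.09, edgeR adjusted p 1). Its level after siLARP4A was above that after siLARP4B by 0.27 (edgeR adjusted p 1.82e-05).

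KRT19, a type I keratin without a tail domain (chromosome 17, 41523617 to 41528308, minus strand), had 373 and 354 FPKM in PC3 siControl, 377 and 401 after siLARP4A and 289 and 273 after siLARP4B. The siLARP4B libraries were the lowest of the 6. KRT19 fell after siLARP4B by 0.38 in log2 units (SE 0.0538, edgeR adjusted p 5.80e-06), and its difference after siLARP4A was 0.11 (95% interval 0.00 to 0.23, edgeR adjusted p 0.0999). It did pass after siLARP4A without siLARP4A replicate 1, at 0.16 (edgeR adjusted p 0.0328). The fall after siLARP4B was lost with limma on log2(FPKM + 0.1), at -0.37 (adjusted p 0.0992). The siLARP4A level exceeded the siLARP4B level by 0.49 (SE 0.0537, edgeR adjusted p 8.03e-08).

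In MG63 the pair KRT8 and KRT18 was present below its PC3 level, and KRT19 was nearly absent. KRT8 had 30.2 and 29.1 FPKM in MG63 siControl, 28.8 and 28.7 after siLARP4A and 25.7 and 25.8 after siLARP4B. KRT18 had 39.9 and 40.2, 37.1 and 35.03, and 28.5 and 26.8 FPKM in the same order. Both keratins were lowest after siLARP4B. KRT18 fell after siLARP4B by 0.52 in log2 units (SE 0.0561, edgeR adjusted p 2.77e-07) and KRT8 by 0.19 (SE 0.0523, edgeR adjusted p 0.00749). The KRT8 call was lost without MG63 siControl replicate 1, at -0.16 (edgeR adjusted p 0.0908). After siLARP4A, KRT18 fell by 0.15 (edgeR adjusted p 0.0430), a call lost with DESeq2 (adjusted p 0.113) and without any 1 of the 4 MG63 siControl and siLARP4A libraries (edgeR adjusted p 0.0739 to 0.344), and KRT8 differed by -0.05 (95% interval -0.15 to 0.06, edgeR adjusted p 0.577).

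KRT19 had 53 and 55 fragments in MG63 siControl, 37 and 23 after siLARP4A and 54 and 53 after siLARP4B. It fell after siLARP4A by 0.80 in log2 units (SE 0.216, edgeR adjusted p 0.00797). Without MG63 siLARP4A replicate 2 the difference was -0.45 and did not pass (edgeR adjusted p 0.259), and without replicate 1 it was -1.21. After siLARP4B the difference was -0.04 (95% interval -0.44 to 0.35, edgeR adjusted p 0.902).

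The KRT8 model used here overlaps KRT18 on the other strand, and the sources used here do not say whether counting used strand. A shorter KRT8 model that ends before KRT18, at position 52905076, was therefore taken as an alternative after the data had been seen. In PC3 this shorter model had 216 and 217 FPKM in siControl, 302 and 323 after siLARP4A and 258 and 249 after siLARP4B, the same order of groups as the longer model. In MG63 the siLARP4B difference of the shorter model was -0.07 (edgeR adjusted p 0.351), so the fall of KRT8 there depends on the model. KRT8 and KRT18 also have many processed pseudogenes, and how fragments with several matches were counted is not given in the sources used here.

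The ratio of KRT8 to KRT18 in FPKM was 0.770 and 0.790 in the PC3 siControl libraries, 0.915 and 0.945 after siLARP4A and 0.908 and 0.904 after siLARP4B. Both siRNA groups lay above siControl, after siLARP4A with both keratins higher and after siLARP4B with KRT8 alone higher. In MG63 the ratio was 0.755 and 0.725 in siControl, 0.776 and 0.818 after siLARP4A and 0.899 and 0.962 after siLARP4B. There the ratio was highest after siLARP4B, where KRT18 was lower. With the shorter KRT8 model the siControl libraries were also the lowest of each line, at 0.820 and 0.825 in PC3 and 0.689 and 0.671 in MG63.

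**Figure D2:**
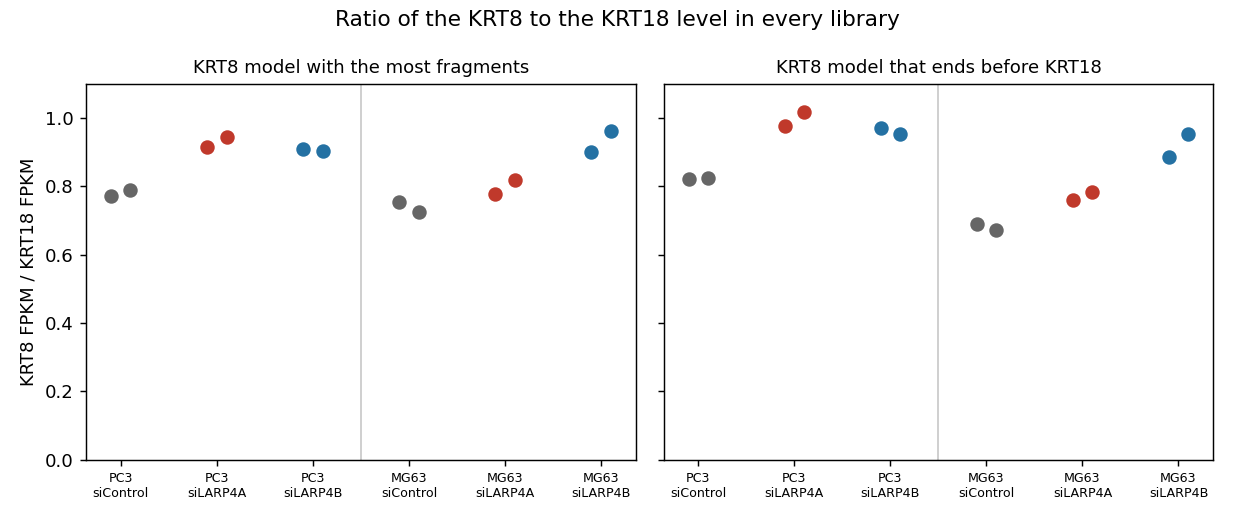
FPKM of KRT8 divided by FPKM of KRT18 in each library, for the KRT8 model with the most fragments and for the shorter model that ends before KRT18. In both lines the siControl libraries have the lowest ratios, from 0.725 to 0.790 for the model with the most fragments.

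Together KRT18, KRT19 and the shorter model of KRT8, taken so that no stretch was counted for more than 1 keratin, made up 0.127% and 0.125% of the fragments in the library totals of PC3 siControl, 0.150% and 0.158% after siLARP4A and 0.124% and 0.119% after siLARP4B. In MG63 the share lay between 0.00863% and 0.0108%. The siLARP4A libraries of PC3 had the largest share, and the siLARP4B libraries lay just below siControl.

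GRHL2 was not tested, and SPDEF is left out of the counts that use the PC3 siLARP4A libraries. Of the other 8 epithelial genes, 4 passed at an adjusted p of 0.05 after siLARP4A in PC3, 2 of them higher (KRT8, KRT18) and 2 lower (EHF, EPCAM). Of all 15685 genes tested, 36.4% passed in that comparison. After siLARP4B in PC3, 5 of the 9 with SPDEF, or 5 of the 8 without it, passed, against 45.7% of all genes. These were CDH1 and KRT8 higher and EHF, EPCAM and KRT19 lower. DESeq2 called 3 of them, KRT8, EHF and KRT19, and edgeR without siLARP4B replicate 1 called 3. Between siLARP4A and siLARP4B in PC3, 5 of the 8 passed, KRT8, KRT18 and KRT19 higher after siLARP4A and EHF and CDH1 lower, against 54.1% of all genes. The median log2 difference was 0.03 over the 8 genes after siLARP4A and 0.00 over the 9 after siLARP4B, beside 0.03 and 0.04 over all genes tested. Under each siRNA some of the epithelial genes rose and others fell.

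**Figure D3:**
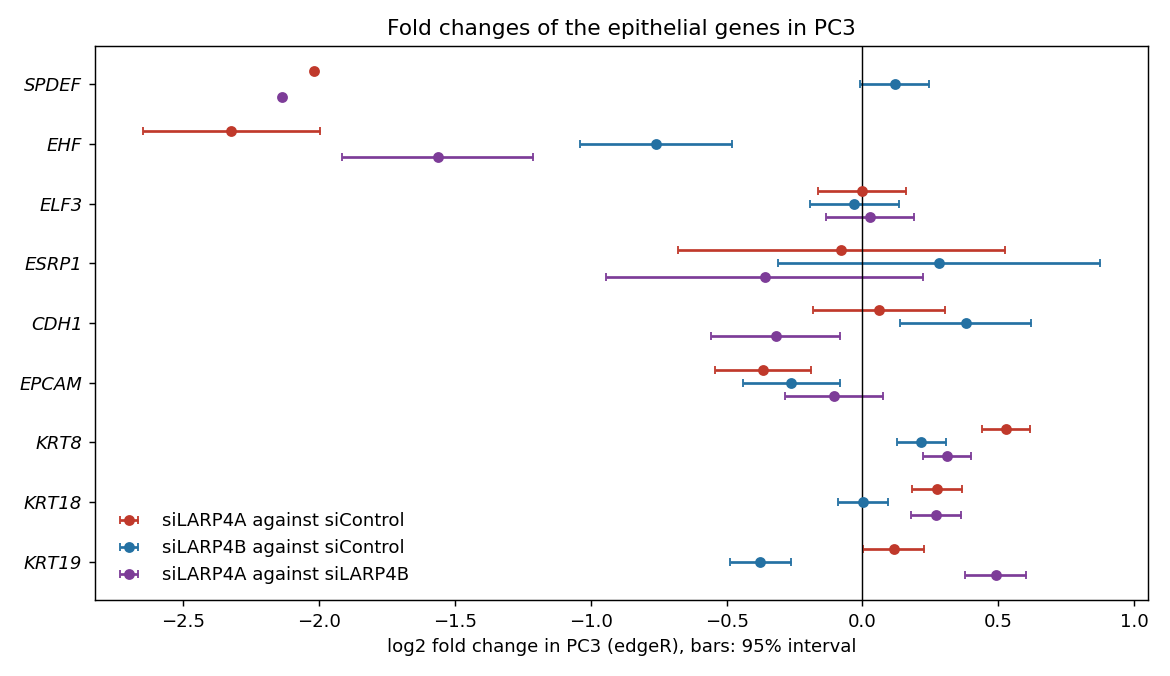
Log2 fold change in PC3 of each of the 9 tested epithelial genes (points) with the 95% interval from edgeR (bars), for each siRNA against siControl and for siLARP4A against siLARP4B. SPDEF has no interval where siLARP4A is compared, and SPDEF and EHF stand farthest left after siLARP4A, at -2.02 and -2.32.

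In MG63, 3 of the 9 passed after siLARP4A (ELF3 higher, KRT18 and KRT19 lower), against 26.8% of all genes. The ELF3 call rests on 7 fragments. Without MG63 siLARP4A replicate 2 none passed, and without either siControl replicate 1 did. After siLARP4B, 3 passed and all were lower (EHF, KRT8, KRT18), against 34.9%. The siControl cells of the lines differed in all 9, each higher in PC3, against 82% of all genes (6481 higher in PC3 and 6381 lower). The 9 were named as epithelial genes, and several passed the expression filter only through their PC3 counts. Their direction was therefore set by the choice and is no support. The median log2 difference between the lines was 7.26 over the 9 genes and -0.00 over all genes. It was smallest for KRT18 at 2.53 (SE 0.0502) and KRT8 at 2.60 (SE 0.0486), followed by EHF at 3.56 (SE 0.198).

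The siRNA targets themselves fell less far in MG63. After siLARP4A, LARP4 was at 25.8% of siControl in MG63 and at 12.7% in PC3. After siLARP4B, LARP4B was at 30.9% in MG63 and at 18.4% in PC3. The part of this in the differences between the lines was not tested. The effect of siLARP4A differed between the lines for 5 of the 8, against 11.2% of all genes. KRT8, KRT18 and KRT19 had a higher effect in PC3, by 0.57, 0.43 and 0.91 on the log2 scale (edgeR adjusted p 6.69e-06, 0.000339 and 0.00906). EHF had a lower one (edgeR adjusted p 0.00243). The call of ELF3 (edgeR adjusted p 0.0367) rests on 7 fragments in MG63 siLARP4A against 0 in MG63 siControl. ELF3 passed the expression filter only through its PC3 counts, so its place in the count is no support. KRT19 was lost there without MG63 siLARP4A replicate 2, at 0.53 (edgeR adjusted p 0.258), and without MG63 siControl replicate 1 (0.0608) or 2 (0.0540). SPDEF is given no test. The effect of siLARP4B differed for 2 of the 9, KRT8 by 0.41 and KRT18 by 0.52 (edgeR adjusted p 0.000121 and 1.35e-05), both higher in PC3, against 26.8% of all genes. With limma on log2(FPKM + 1) it differed for 5 of the 9, 3 of them higher in PC3 and 2 lower.

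The genes whose pattern over the 6 PC3 libraries was most like that of SPDEF were FGFRL1, TFF2, PSMD10, ARL6IP6 and PEG10, out of 8848 candidates. The measure was the root mean square difference of log2 CPM, each gene centred on its own mean, and it was 0.07 for FGFRL1, 0.13 for TFF2, 0.16 for PSMD10, 0.16 for ARL6IP6 and 0.17 for PEG10. These genes were chosen by that pattern, so their PC3 values are a description. FGFRL1, an FGF receptor relative without a kinase domain, had 42.8 and 44.7 FPKM in siControl, 10.9 and 11.2 after siLARP4A and 44.8 and 45.0 after siLARP4B. TFF2, a trefoil peptide of mucous secretion, had 54.2 and 54.3, then 15.4 and 17.3, then 65.6 and 68.7 FPKM. Candidates had a mean of at least 5 FPKM in a PC3 group, which EHF, CDH1, ESRP1 and GRHL2 did not reach, so these 4 could not be among the 5.

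MG63 was not used to choose these genes. After siLARP4A in MG63, FGFRL1 fell by 0.96 in log2 units (SE 0.0478, edgeR adjusted p 4.25e-12), from 68.5 and 67.8 FPKM to 35.9 and 34.3. PSMD10, a proteasome assembly chaperone, fell by 0.94 (SE 0.0794, edgeR adjusted p 1.05e-08), from 21.8 and 21.5 FPKM to 11.7 and 10.8. ARL6IP6 fell by 1.15 (SE 0.0911, edgeR adjusted p 4.12e-09), from 13.8 and 12.96 FPKM to 5.69 and 6.34. PEG10, an imprinted gene of retrotransposon origin, fell by 0.93 at low levels (SE 0.333, edgeR adjusted p 0.0427), from 0.267 and 0.245 FPKM to 0.164 and 0.106. TFF2 was listed at 0 in 5 of the 6 MG63 libraries.

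**Figure D4:**
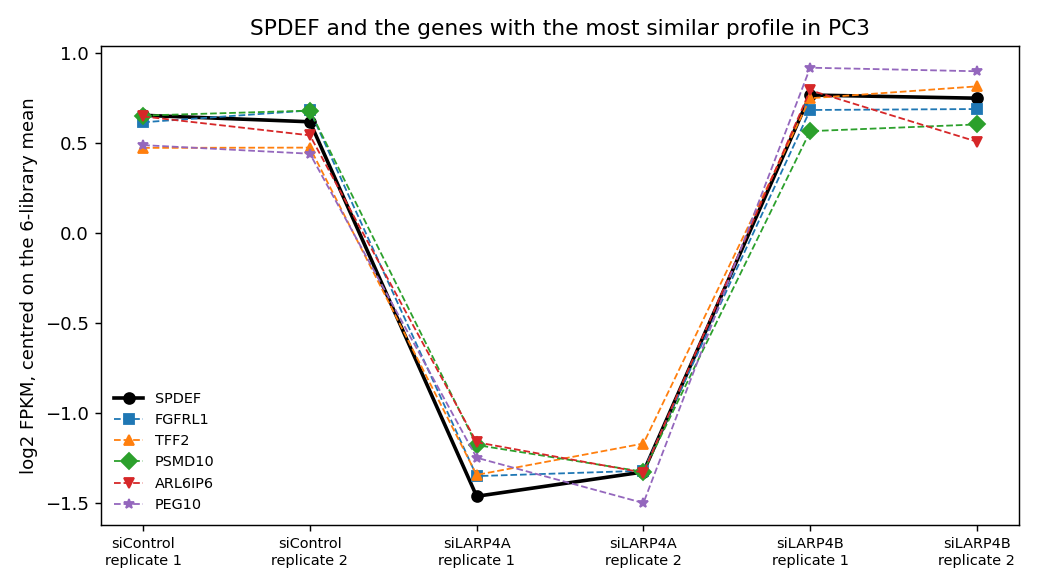
Level of SPDEF and of the 5 genes most like it in the 6 PC3 libraries, as log2 FPKM centred on each gene's own mean over them; lines join the points of a gene only to guide the eye. All 6 genes have their lowest values in the 2 siLARP4A libraries.

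Wider lists of related genes, written with earlier results of these data known, were counted in PC3, where 36.4% of all genes tested passed after siLARP4A and 45.7% after siLARP4B. Of 22 junction and polarity genes tested, 6 rose and 7 fell after siLARP4A (59.1% called), and 5 rose and 8 fell after siLARP4B (59.1%). The median log2 difference was -0.07 after siLARP4A and -0.00 after siLARP4B, beside 0.03 and 0.04 over all genes. CLDN3, a tight junction claudin, fell after siLARP4A by 0.97 on the log2 scale (edgeR adjusted p 2.41e-07), from 23.9 and 21.7 FPKM to 12.03 and 10.8, and after siLARP4B by 0.64 (edgeR adjusted p 2.90e-05). CDH3, P-cadherin, fell after siLARP4A by 0.95 (edgeR adjusted p 2.71e-10), and CLDN4, the most abundant claudin named here at 299.5 and 299.3 FPKM in siControl, rose by 0.32 (edgeR adjusted p 2.08e-05). LLGL2, a polarity protein, fell after siLARP4A by 0.37. After siLARP4B, CLDN1 rose by 0.88, and PKP3, a desmosome plakophilin, and F11R, a junction adhesion molecule, fell by 0.62 and 0.60 (edgeR adjusted p 2.58e-07 and 9.33e-08).

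Of 20 epithelial surface and trafficking genes tested, 2 rose and 7 fell after siLARP4A (median -0.15), and 5 rose and 4 fell after siLARP4B (median -0.01). The share called was 45% in each comparison, beside 36.4% and 45.7% of all genes. After siLARP4A, ITGB4, an integrin of hemidesmosomes, fell by 0.58 on the log2 scale (edgeR adjusted p 7.84e-09), from 92.5 and 86.9 FPKM to 58.5 and 60.2. CD9, a tetraspanin, fell by 0.51, TMEM30B fell by 0.63, and LAD1 rose by 0.66. After siLARP4B, ITGA6, the integrin partner of ITGB4, fell by 0.91 (edgeR adjusted p 6.65e-11), from 54.4 and 57.3 FPKM to 29.6 and 29.8. CD24 and SPINT1 rose by 0.54 and 0.47, and CDCP1 fell by 0.45.

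Among 14 other epithelial transcription and splicing factors tested, 3 rose and 3 fell after siLARP4A, and 3 rose and 5 fell after siLARP4B. The shares called were 42.9% and 57.1%, beside 36.4% and 45.7% of all genes. ESRP2, the splicing factor related to ESRP1, was the more abundant of the pair in PC3 siControl at 21.8 and 22.5 FPKM, and it fell to 14.6 and 16.3 after siLARP4A, by 0.51 on the log2 scale (edgeR adjusted p 4.78e-06). KLF4, a Kruppel-like factor of epithelia, rose after siLARP4A by 0.32 and fell after siLARP4B by 0.27 (edgeR adjusted p 0.000282 and 0.00125). TFAP2A rose under both, by 0.16 and 0.37 (edgeR adjusted p 0.0459 and 2.69e-05). KLF5 and FOXA2 fell after siLARP4B by 0.34 and 0.32.

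Of 17 other ETS family genes tested, 6 rose and 1 fell after siLARP4A (median 0.16), and none rose and 4 fell after siLARP4B (median -0.01). The shares called were 41.2% and 23.5%, beside 36.4% and 45.7% of all genes. After siLARP4A, ELF4, ELK3, ELF2 and ETS1 rose by 0.59, 0.53, 0.48 and 0.47 on the log2 scale (edgeR adjusted p 8.87e-08, 2.35e-06, 0.000125 and 5.94e-07). After siLARP4B the 4 genes that fell were ELK4 by 1.69, ETS1 by 0.71, ETV1 by 0.67 and ETV3 by 0.23. ELK4 went from 6.83 and 6.63 FPKM to 2.04 and 2.15 (edgeR adjusted p 1.70e-13).

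Of the 10 other keratins tested, none rose and 5 fell after siLARP4A (median -0.31), and 4 rose and 1 fell after siLARP4B (median 0.28). The share called was 50% in each comparison, beside 36.4% and 45.7% of all genes. KRT81, a hair keratin with near-identical relatives whose fragments could be shared with it, had 97.7 and 105.3 FPKM in siControl, 80.7 and 86.2 after siLARP4A and 174.5 and 153.3 after siLARP4B. It fell by 0.26 on the log2 scale after siLARP4A and rose by 0.69 after siLARP4B (edgeR adjusted p 0.00188 and 6.47e-09). KRT15 fell by 0.53 and rose by 0.31, and KRT80 fell by 0.24 and rose by 0.66, in the same order (edgeR adjusted p 0.00196, 0.0386, 0.0228 and 3.41e-07). KRT7 fell after siLARP4A by 0.36. After siLARP4A, KRT8 and KRT18 rose while these 4 keratins fell.

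Of the 13 prostate luminal and secretory genes tested, 2 rose and 8 fell after siLARP4A (median -0.43), and 6 rose and none fell after siLARP4B (median 0.12). The shares called were 76.9% and 46.2%, beside 36.4% and 45.7% of all genes. The trefoil peptides TFF3 and TFF1 fell after siLARP4A by 0.90 and 0.83 on the log2 scale (edgeR adjusted p 4.60e-07 and 2.94e-07). TFF3 had 40.6 and 34.9 FPKM in siControl, 19.5 and 20.5 after siLARP4A and 63.4 and 62.9 after siLARP4B. It rose after siLARP4B by 0.74 (edgeR adjusted p 8.49e-07), and TFF1 by 0.25 (edgeR adjusted p 0.0152). The gel-forming mucin MUC5B and the transcription factor CREB3L4 fell after siLARP4A by 0.48 and 0.43. CREB3L1 rose after siLARP4B by 0.89, from 32.6 and 28.8 FPKM to 56.4 and 57.6 (edgeR adjusted p 3.62e-10), and SLC45A3 by 0.35.

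Mesenchymal repressors and markers were counted beside them. Of 13 tested in PC3, 6 rose and 3 fell after siLARP4A (median 0.20), and 1 rose and 3 fell after siLARP4B (median 0.00). The shares called were 69.2% and 30.8%, beside 36.4% and 45.7% of all genes. SNAI2 and ZEB1, repressors of epithelial genes, rose after siLARP4A by 0.53 and 0.38 on the log2 scale (edgeR adjusted p 4.31e-06 and 0.00443). SNAI2 went from 12.6 and 12.4 FPKM to 18.1 and 17.6. ZEB1 went from 4.11 and 4.06 FPKM to 5.91 and 4.46, so most of its rise was in siLARP4A replicate 1. FN1, fibronectin, rose after siLARP4A by 0.76 and fell after siLARP4B by 0.25, and S100A4 fell under both, by 0.74 and 0.43. VIM fell after siLARP4B by 0.29 (edgeR adjusted p 5.55e-06), and SPARC, a matrix glycoprotein, rose by 1.07 (edgeR adjusted p 2.55e-09). The summed osteoblast and mesenchymal markers lay between 106.2 and 109.6 FPKM in the PC3 siControl libraries, between 103.7 and 106.8 after siLARP4A and between 84.7 and 87.0 after siLARP4B. Leukocyte markers summed to between 13.3 and 21.6 FPKM in the PC3 libraries, with 2 of the 4 in the tables below 0.1 in each group, and the part of other cell types in these results was not tested.

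**Figure D5:**
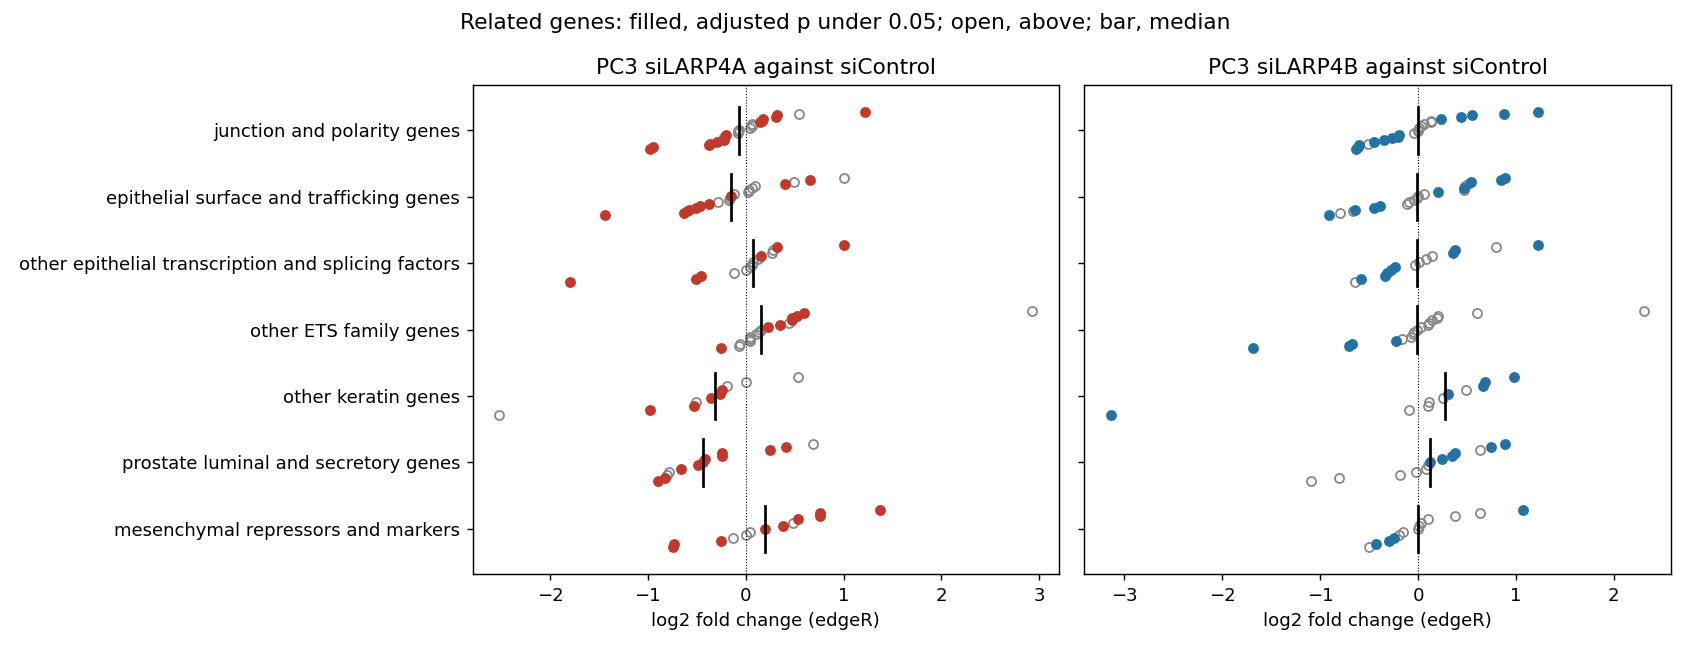
Log2 fold change from edgeR in PC3 of every tested gene of the 7 related lists, after siLARP4A and after siLARP4B against siControl; filled points passed an adjusted p of 0.05, open points did not, and vertical bars mark the list medians. The prostate luminal and secretory list has a median of -0.43 after siLARP4A and 0.12 after siLARP4B.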

How the data were processed

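Per the labels, RNA was sequenced from 12 libraries, 2 in each of 6 groups of line and siRNA. Per the file headers, the authors deposited 1 table per library with a fragment count, an FPM value and an FPKM value for each transcript model. In these deposited tables FPM is a signal, the count scaled by the total of its library, and FPKM is FPM per kilobase of model; both relations were checked on the values. The submitters' processing notes name FastQC, HISAT2, featureCounts, edgeR and the build hg38, with no role or order, and whether strand was used is not given in the sources used here.

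Counts were collapsed to 1 model per symbol, the one with the most fragments, on the primary chromosomes. Symbols placed at several loci were dropped, which kept 26468. The test was that of edgeR 4.0.16, run in R 4.3.3 on these counts (quasi-likelihood F-test, TMM scaling, default expression filter, 1 fit of all 12 libraries, two-sided). Benjamini-Hochberg adjustment ran over the 15685 genes tested, with a threshold of 0.05. The biological coefficient of variation was 4.22%, and replicates correlated at r from 0.992 to 0.994 across genes. The test was also run on counts simulated from its own fitted spread. The outcome is not given here, and such counts cannot show whether that model holds for these data. Every adjusted p not credited to another tool is from edgeR. DESeq2 1.42.0, limma 3.58.1 on log2(FPKM + 1) and log2(FPKM + 0.1), other filters, models and fits, and each library left out were alternatives, 23 in all.

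The members and lists were chosen with earlier results of these data known. From each list up to 4 genes per comparison are named: those past the threshold with the largest change and a mean of at least 5 FPKM in either group. The SPDEF-like genes are the 5 with the smallest distance among tested genes with a mean of at least 5 FPKM in any PC3 group. Counting intervals are exact at 95%, and they and the floor of 3 fragments cover counting error only. A fold change of a member was followed through the alternatives where every group held at least 5 fragments per library on average, a minimum set after seeing the data. Promoters are from RefSeq, GRCh38.p14. PC3 siControl replicate 2 has a second, deduplicated table, used only as an alternative.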

Additional observations from a re-analysis of the deposited data

Results flagged for a closer look

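The effect of siLARP4A differed between PC3 and MG63, by the interaction test of edgeR, for 5 of the epithelial genes. For EHF the difference was -1.95 on the log2 scale (adjusted p 0.00243 from edgeR), with a fall in PC3 and no call in MG63. For KRT8 it was 0.57 (edgeR adjusted p 6.69e-06), for KRT18 0.43 (edgeR adjusted p 0.000339) and for KRT19 0.91 (edgeR adjusted p 0.00906), each higher in PC3 than in MG63. For ELF3 it was -5.03 (edgeR adjusted p 0.0367), a fitted value that rests on 7 fragments in the MG63 siLARP4A libraries against 0 in siControl and is no bound.

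The effect of siLARP4B differed between the lines for KRT18 by 0.52 (edgeR adjusted p 1.35e-05) and for KRT8 by 0.41 (edgeR adjusted p 0.000121). KRT18 did not pass in PC3 and fell in MG63, while KRT8 rose in PC3 and, with the model that has the most fragments, fell in MG63. Both siRNA targets also fell less far in MG63 than in PC3. What sets these differences was not tested.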

How the results depend on the processing

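Of 47 fold changes of the epithelial genes followed through the alternatives, 27 kept their direction and their side of the threshold in each one tried. Among 1055 pairs of a fold change and an alternative, 988 were unchanged in this sense, 39 were lost, 2 were gained and 26 changed sign. Counts of epithelial genes called include SPDEF here, and so do the fold changes followed. SPDEF was chosen by its fall after siLARP4A in PC3. Its part in counts and fold changes that use those libraries was set by that choice and is no support. The number called after siLARP4B in PC3 was 3 with DESeq2, 2 with limma on log2(FPKM + 0.1) and 3 to 5 with 1 library left out. After siLARP4A in MG63 it was 1 with only the 6 MG63 libraries and 0 to 3 with 1 left out, and all genes called there were then 2698 to 4763. For the siLARP4A effect between lines, leaving out 1 library gave 3 to 6 epithelial genes and 1050 to 2035 of all genes. For the siLARP4B effect between lines, limma on log2(FPKM + 1) called 5 epithelial genes. With a mean of at least 5 FPKM required, 8530 genes differed between the lines, where fewer genes were tested. Of all genes after siLARP4B in PC3, DESeq2 called 5501 of 22751, and limma on log2(FPKM + 0.1) called 6643 of 15685.

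The changes of sign were in values that had not passed with the main settings, and 1 of them passed after the change. KRT18 after siLARP4B in PC3 was -0.0239 with DESeq2, -0.0183 with the size factors of DESeq2 in edgeR, -0.0454 without an expression filter, -0.0432 with the 6 PC3 libraries, -0.0377 with the shorter KRT8 model, and -0.0495 to 0.0065 with 1 library left out. With a mean of at least 5 FPKM required, ELF3 in PC3 was 0.0044 after siLARP4A and 0.0025 after siLARP4B. With 1 library left out, in PC3 after siLARP4A, ELF3 ran from -0.0762 to 0.0745, ESRP1 from -0.2637 to 0.1210 and CDH1 from -0.0527 to 0.1622, and ELF3 between the siRNAs from -0.0418 to 0.1089. KRT8 after siLARP4A in MG63 was 0.0494 with the shorter model. The siLARP4B effect on EHF between lines was -0.3255 with limma on log2(FPKM + 1) (adjusted p 0.0227). The cause was not tested.

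Deviations of same-numbered libraries correlated at -0.017 to 0.048 across genes, so no pairing by replicate number was seen. All tested genes weighed alike in that correlation. Counting noise of low genes could hide a shared batch, so it cannot exclude pairing. With the replicate number as a block, 5 epithelial genes, SPDEF among them, passed after siLARP4A in PC3, of 5558 genes in all. After siLARP4B 5 passed, of 6987, and between the siRNAs 6 with SPDEF, of 8356. These totals are out of 15685 genes tested. In MG63, 2 and 3 epithelial genes passed after siLARP4A and siLARP4B. KRT18 after siLARP4A in MG63 was the only followed fold change whose call the block changed (-0.1528, edgeR adjusted p 0.0566). Groups of 2 libraries give little information on the spread of any 1 gene, which edgeR moderates across genes. In MG63, 7 of the 10 genes had at most 18 fragments in any library, at which only large differences could be seen.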
